A study of Mus musculus with 24 samples.

Results

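The genes of oxidative phosphorylation were followed across 24 RNA sequencing libraries of stromal cells sorted from the mouse Peyer's patch, the lymphoid tissue in the wall of the small intestine. Members were all protein-coding genes whose symbol names a subunit of NADH dehydrogenase (Nduf), cytochrome c oxidase (Cox4 to Cox8), the cytochrome bc1 complex (Uqcr), ATP synthase (Atp5) or succinate dehydrogenase (Sdha to Sdhd), without Ndufa4l2, Cox4i2 and pseudogenes, together with the 13 protein genes of mitochondrial DNA. This gave 98 genes, 85 nuclear and 13 mitochondrial, of 36528 gene models in the files. By complex there were 45 members in complex I (38 nuclear and 7 mitochondrial), 4 nuclear members in complex II, 9 in complex III (8 and 1), 21 in complex IV (18 and 3) and 19 in complex V (17 and 2). At least 1 of the comparisons below could test 94 of them; Ndufb4c, Cox6a2, Cox7b2 and Cox8c had too few reads in every comparison.

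The libraries came from endothelial cells of high endothelial venules (HEV, the vessels through which lymphocytes enter) and from fibroblastic reticular cells (FRC, the fibroblasts of the tissue scaffold), 1000 sorted cells per mouse. Mice had either drunk polyethylene glycol (PEG, an osmotic agent, 10% w/v in the drinking water, as much as they wished, for 3 days) or were unperturbed, called control here. The 4 groups were HEV PEG (n = 6), HEV control (n = 4), FRC PEG (n = 7) and FRC control (n = 7), and no strain, age or sex is stated in the labels used. Libraries carry the numbers 1 to 24. Numbers 1-9 hold 3 HEV libraries (1 PEG and 2 control) and 6 FRC libraries (3 of each treatment), and numbers 10-24 hold 7 HEV libraries (5 PEG and 2 control) and 8 FRC libraries (4 of each treatment).

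Gene reads per library lay between 12416032 and 21710946 in 23 libraries, and HEV PEG library 16 had 3115003. Levels are given in CPM, the reads of a gene relative to all gene reads of its library in the usual scaling. The cell type labels were checked against markers. The endothelial gene Cdh5 had 305 to 413 CPM in HEV PEG and 169 to 360 CPM in HEV control libraries, against at most 2.12 CPM in FRC PEG and at most 16.4 CPM in FRC control libraries. The fibroblast gene Pdgfra had at most 1.61 CPM in every HEV library, against 355 to 784 CPM in FRC PEG and 425 to 676 CPM in FRC control libraries. Ccl19, a defining chemokine of FRCs, was nearly absent from the FRC libraries at 0 to 1.55 CPM.

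Oxidative phosphorylation couples the oxidation of NADH and succinate to the making of ATP in the inner mitochondrial membrane. Complexes I, III and IV pump protons, complex II feeds electrons from succinate without pumping, and complex V, the ATP synthase, lets the protons return. Complex II is built from nuclear genes alone, while the other 4 complexes need subunits from both genomes. Many of the nuclear genes are known to carry promoter sites for NRF1 (nuclear respiratory factor 1) or GABP, an ETS-family factor also called NRF-2, and the mitochondrial genes are cut from long transcripts of the whole circle.

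Promoters of 6 nuclear members named in the results below are shown. All 6 hold an NRF1 or GABP site, which most member promoters do not (counts below), so they do not stand for the members. Cox6c, Atp5mpl, Ndufv3 and Uqcrq, also called lower in libraries 1-9 in FRCs, are not shown and are not among the members with such a site. Ndufa8 separated HEV from FRC libraries, Atp5j, Uqcr11, Ndufb6 and Cox6a1 separated libraries 1-9 from 10-24 in FRCs, and Sdhd, of complex II, had overlapping levels in those libraries. Each is the run of 250 bases before the start site, 5′ to 3′ on the gene's strand (minus in all 6), from RefSeq on GRCm38.p6. Capitals mark matches, on either strand, to the NRF1 core GCGCANGCG or the GABP (ETS) site CCGGAAG; in Cox6a1 the run GCGCATGCGC holds overlapping NRF1 matches on both strands. The places are chr2:36049339-36049588 for Ndufa8, chr16:84834977-84835226 for Atp5j (1 of 2 start sites listed), chr10:80406822-80407071 for Uqcr11, chr4:40279422-40279671 for Ndufb6, chr5:115348959-115349208 for Cox6a1 and chr9:50603850-50604099 for Sdhd. Of the start sites listed for Atp5j, the one whose window matched the most kinds of site was taken, and the lower position at a tie.
Ndufa8: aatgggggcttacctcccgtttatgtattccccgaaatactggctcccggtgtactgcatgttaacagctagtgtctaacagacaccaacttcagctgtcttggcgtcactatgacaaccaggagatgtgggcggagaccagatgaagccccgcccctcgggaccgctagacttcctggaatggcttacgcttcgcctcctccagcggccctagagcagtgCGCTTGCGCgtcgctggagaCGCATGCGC
Atp5j: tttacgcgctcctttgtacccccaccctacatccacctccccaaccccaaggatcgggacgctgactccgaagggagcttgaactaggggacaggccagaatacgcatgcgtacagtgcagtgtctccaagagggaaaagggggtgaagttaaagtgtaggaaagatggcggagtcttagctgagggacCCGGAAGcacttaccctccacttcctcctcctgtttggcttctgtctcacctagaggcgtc
Uqcr11: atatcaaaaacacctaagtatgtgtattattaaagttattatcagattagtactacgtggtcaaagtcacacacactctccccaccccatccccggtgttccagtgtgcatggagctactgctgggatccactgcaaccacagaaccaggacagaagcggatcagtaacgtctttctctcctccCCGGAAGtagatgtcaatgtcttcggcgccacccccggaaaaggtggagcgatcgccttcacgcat
Ndufb6: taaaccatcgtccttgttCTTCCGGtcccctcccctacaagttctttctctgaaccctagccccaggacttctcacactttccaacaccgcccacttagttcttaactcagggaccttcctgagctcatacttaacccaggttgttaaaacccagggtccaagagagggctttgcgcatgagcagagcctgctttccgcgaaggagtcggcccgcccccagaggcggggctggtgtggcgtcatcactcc
Cox6a1: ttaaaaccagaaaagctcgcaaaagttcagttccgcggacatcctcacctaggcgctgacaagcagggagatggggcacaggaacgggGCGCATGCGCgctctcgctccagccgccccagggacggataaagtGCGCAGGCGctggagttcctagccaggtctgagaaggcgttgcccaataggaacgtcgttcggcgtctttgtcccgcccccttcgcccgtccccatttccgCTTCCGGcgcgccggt
Sdhd: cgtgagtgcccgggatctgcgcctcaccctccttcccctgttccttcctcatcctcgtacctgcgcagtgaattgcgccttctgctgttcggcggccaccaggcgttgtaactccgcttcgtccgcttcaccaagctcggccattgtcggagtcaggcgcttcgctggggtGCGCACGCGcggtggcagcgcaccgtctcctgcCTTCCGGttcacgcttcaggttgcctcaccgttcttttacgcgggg

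Of the 85 nuclear members, 70 matched a RefSeq promoter. The NRF1 core was present in 14 of these 70 (20%), against 1584 of 27025 genes with a promoter (5.86%). The GABP site was present in 12 of 70 (17.1%), against 2115 of 27025 (7.83%), and ATGGCGGC, a YY1-type site, in 1 of 70 (1.43%), against 322 of 27025 (1.19%). A match describes the letters and is not evidence of binding.

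Among the members, the highest levels came from mitochondrial genes. Levels of different genes were compared per length, with the size-factor-adjusted RPKM deposited by the authors (nRPKM), as medians over the 24 libraries. mt-Nd1, a membrane subunit of complex I, had 3998 nRPKM, mt-Cytb, cytochrome b of complex III, 2076, and mt-Co1, the catalytic subunit of complex IV, 959. The leading nuclear members belonged to complexes IV, V and III. Cox4i1 had 579 nRPKM, Cox6c 542, Cox6a1 397, Cox8a 384, Atp5j (a stalk subunit of ATP synthase) 380, Cox6b1 358, Atp5b (the catalytic beta subunit) 347 and Uqcrh 329.

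The other anchor subunits spanned a wide range. In complex II, Sdhb (the iron-sulfur subunit) had 189 nRPKM, Sdha (the flavoprotein that binds succinate) 111, and the membrane anchors Sdhd and Sdhc had 64.0 and 24.7. Ndufv1 and Ndufs1, which carry electrons in the matrix arm of complex I, had 123 and 22.3 nRPKM. Of the genes for the c-ring of ATP synthase, Atp5g3 had 329, Atp5g1 12.3 and Atp5g2 1.00 nRPKM.

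Tissue-restricted paralogs of complex IV were low or listed at 0. Cox6b2, a paralog known from testis, had a median of 12.9 nRPKM and the muscle forms Cox7a1 and Cox8b had 8.06 and 0.181, while Cox8c, Cox6a2 and Cox7b2 had medians of 0. Cox6a2 was listed at 0 in every library, Cox8c was above 0 in FRC control library 4 alone (0.095 nRPKM), and Cox7b2 in FRC PEG library 19 (2.16 nRPKM) and FRC control library 20 (0.186 nRPKM). Ndufa4l2 and Cox4i2, hypoxia-linked paralogs that are not members, had 0 to 14.1 and 0 to 15.1 CPM over the libraries and passed no test here. Many members have processed pseudogenes or near-identical copies, and only uniquely aligned reads were kept, so levels of genes with such copies (Atp5g2, Atp5l, Cox7c and Ndufb4 had 1.00, 11.6, 21.2 and 8.58 nRPKM) are uncertain.

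Along the mitochondrial genome the 13 genes fell into a high and a low class. A block of 6 consecutive genes was low: mt-Co2 had a median of 0.503 nRPKM, mt-Atp8 11.9, mt-Atp6 6.17, mt-Co3 1.20, mt-Nd3 2.24 and mt-Nd4l 3.40. The 7 genes on either side of it were high, from 186 nRPKM for mt-Nd6 and 207 for mt-Nd5 to 407 for mt-Nd2, 423 for mt-Nd4 and the 3 values above. mt-Co2 had 2 to 19 reads in any library, while mt-Co1 next to it had 7655 to 43696.

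The plot of nRPKM along the mitochondrial genome shows the block in all 4 groups. The nucleus is known to carry copies of stretches of mitochondrial DNA, which make reads there map to more than 1 place; their part in the low block was not tested. mt-Atp8 overlaps mt-Atp6, mt-Nd4l overlaps mt-Nd4, and mt-Nd6 lies on the opposite strand. The counts carry no strand information, so reads from the other strand at mt-Nd6 cannot be told apart.

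**Figure D1:**
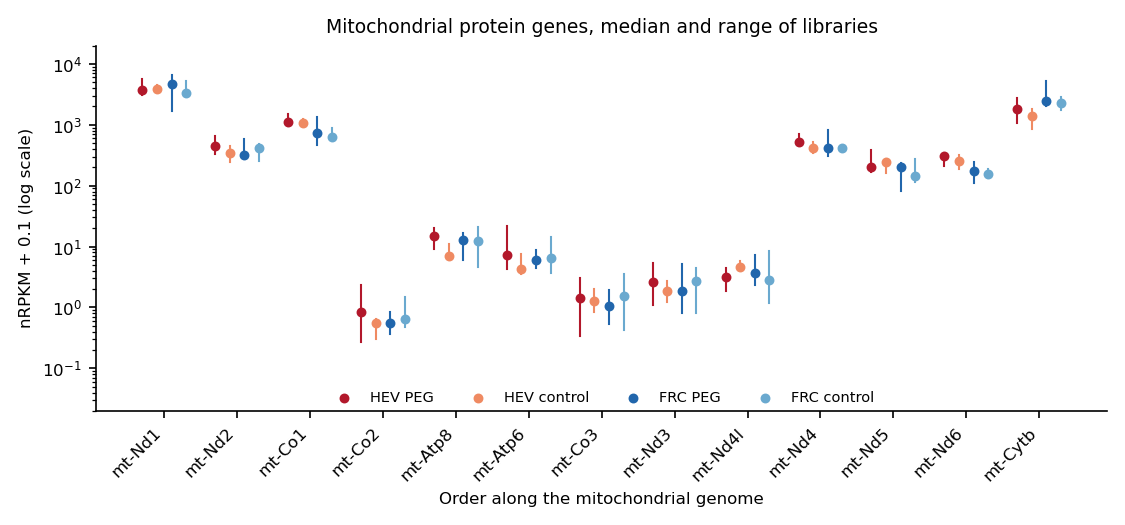
Levels of the 13 mitochondrial protein genes in their order along the genome. The y axis is nRPKM + 0.1 on a log scale, points are group medians and lines run from the lowest to the highest library of HEV PEG (n = 6), HEV control (n = 4), FRC PEG (n = 7) and FRC control (n = 7). The 6 genes from mt-Co2 to mt-Nd4l had medians of 0.503 to 11.9 over all libraries, and the other 7 had medians of 186 to 3998.

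As a share of gene reads, the 13 mitochondrial genes took 1.23% ± 0.204 in HEV PEG, 1.09% ± 0.0988 in HEV control, 1.44% ± 0.476 in FRC PEG and 1.14% ± 0.0862 in FRC control libraries (mean ± SD, n = 6, 4, 7 and 7). The 85 nuclear genes took 1.43% ± 0.365 in HEV PEG, 1.15% ± 0.212 in HEV control, 1.34% ± 0.323 in FRC PEG and 1.31% ± 0.367 in FRC control libraries. Both shares overlapped between all 4 groups. The highest mitochondrial sums were those of FRC PEG libraries 19, 10 and 18 (22383, 17049 and 16496 CPM), and the lowest was that of FRC PEG library 11 (7388 CPM).

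The first question is whether the module differs between the cell types. In control libraries 6 members were higher and 12 lower in HEV than in FRC, of 93 tested, at an adjusted p under 0.05. Among all 15743 genes tested, 10.4% were higher and 14.2% lower, so the members' shares (6 of 93 and 12 of 93) were not above the background. Every HEV library lay above every FRC library for 4 members and below for 4, against 8.07% and 11.3% of all genes. The median log2 fold change was -0.28 over 81 nuclear members and 0.10 over 12 mitochondrial members, against -0.16 over all genes. Without HEV control library 8 these medians were -0.55 and -0.33, and without HEV control library 9 they were -0.11 and 0.02. The nuclear median was 0.10 within libraries 1-9 and -0.40 within libraries 10-24. The pool term sets HEV library 9 with FRC libraries 12 and 13 and does not adjust for the split after library 9 described below. In bulk RNA of sorted cells, fewer cells of a type and less RNA per cell cannot be told apart.

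In the PEG libraries, which share none with the controls, 3 members were higher and 4 lower in HEV than in FRC, of 92 tested, against 12.5% and 14.4% of 14991 genes. The HEV libraries lay wholly above for 1 member and wholly below for 1, against 7.78% and 9.4% of all genes. The nuclear median was 0.00 and the mitochondrial median 0.13. Called in the same direction in both were Ndufa8 and mt-Nd6, higher in HEV, and mt-Cytb, Cox6b2, Ndufa13 and Ndufv3, lower in HEV. That is 33.3% of the members called higher in controls and 66.7% of those called higher under PEG, and for those called lower 33.3% and 100%. Over all genes tested in both, these shares were 76.1% and 66.9% for genes called higher and 72.8% and 68.7% for genes called lower. Under PEG all HEV libraries carry a different i5 index from all FRC libraries, so index and cell type cannot be told apart there, while in controls both indices occur in both cell types.

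Ndufa8, an accessory subunit of complex I on the intermembrane side, had no overlap between the cell types in either treatment. It had 199 to 338 CPM (median 269) in HEV PEG libraries and 226, 236, 167 and 254 CPM in HEV control libraries 8, 9, 17 and 24, against 65.1 to 153 (median 101) in FRC PEG and 83.8 to 127 (median 108) in FRC control libraries. Every HEV library lay above every FRC library. The log2 fold change of HEV over FRC was 1.17 ± 0.19 (SE) under PEG (edgeR adjusted p = 0.00028) and 1.12 ± 0.19 in controls (adjusted p = 0.0010). Its promoter above holds 2 NRF1 matches.

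mt-Cytb, cytochrome b, was lower in HEV in both treatments, while other mitochondrial genes called were higher. It had 1577 to 3905 CPM (median 2809) in HEV PEG and 1465, 1242, 2559 and 2580 CPM in HEV control libraries, against 2968 to 8040 (median 3509) in FRC PEG and 2642 to 4212 (median 3403) in FRC control libraries. In controls the cell types did not overlap. The log2 fold changes were -0.99 ± 0.20 under PEG (adjusted p = 0.0022) and -0.93 ± 0.16 in controls (adjusted p = 0.0010).

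mt-Co1 had 2095, 2150, 1937 and 2558 CPM in HEV control libraries, against 1219 to 1758 (median 1293) in FRC control libraries, without overlap. Its log2 fold change was 0.73 ± 0.14 in controls (adjusted p = 0.0022) and 0.43 ± 0.22 under PEG (adjusted p = 0.18). mt-Nd6 had values of 0.72 ± 0.21 under PEG (adjusted p = 0.021) and 0.75 ± 0.20 in controls (adjusted p = 0.018), and its call was lost without HEV PEG library 7 or HEV control library 24. mt-Nd5, a proton-pumping subunit, had 0.36 ± 0.22 under PEG and 0.66 ± 0.20 in controls (adjusted p = 0.28 and 0.031), and the call was lost without HEV control 9 or 24 or FRC control 12, 13 or 20. mt-Nd1 and mt-Nd4 did not pass, with 0.16 ± 0.14 and 0.04 ± 0.14 in controls. The low block gave -0.70 to 0.84 in controls with SE of 0.74 to 1.02, and none of those tested passed.

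Higher in HEV in the controls were also 2 nuclear members of complexes III and IV. Uqcrc2, a core subunit of complex III, had 113, 219, 213 and 200.2 CPM in HEV control libraries, against 47.8 to 96.0 (median 75.9) in FRC control libraries, without overlap. The log2 fold change was 1.34 ± 0.28 (adjusted p = 0.0038). Under PEG the cell types overlapped for Uqcrc2, with 96.0 to 176 CPM in HEV and 83.2 to 226 CPM in FRC libraries (-0.27 ± 0.25, adjusted p = 0.50). Cox7a2l, which joins complexes III and IV into supercomplexes, had 237, 207, 304 and 253 CPM in HEV control libraries, against 127 to 184 (median 155) in FRC control libraries (0.66 ± 0.17, adjusted p = 0.015). That call was lost without HEV control library 8 (adjusted p = 0.059).

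Among the members lower in HEV in controls were 7 of 37 nuclear members of complex I, 0 of 4 of II, 1 of 8 of III, 2 of 15 of IV and 1 of 17 of V, beside 14.2% of all genes; differences between complexes were not tested. Cox6b2 had 0 to 2.29 CPM (median 1.91) in HEV PEG libraries and 0, 0, 1.64 and 0.556 CPM in HEV control libraries, against 9.34 to 18.5 in FRC PEG and 7.25 to 48.9 in FRC control libraries. No HEV library reached any FRC library, and the HEV libraries were at or near the limit of detection. The fitted log2 fold changes of -3.84 ± 1.11 under PEG (adjusted p = 0.019) and -6.94 ± 1.25 in controls (adjusted p = 0.0016) depend on the prior count. Its common paralog Cox6b1 had 0.38 ± 0.26 under PEG and -0.06 ± 0.25 in controls and passed in neither.

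Among complex I members, Ndufa13 had 87.1 to 184 CPM (median 162) in HEV PEG and 102, 92.5, 99.2 and 131 CPM in HEV control libraries, against 149 to 297 (median 174) in FRC PEG and 133 to 286 (median 268) in FRC control libraries. The cell types separated in controls (-1.01 ± 0.22, adjusted p = 0.0052) and overlapped under PEG (-0.65 ± 0.20, adjusted p = 0.025). Ndufv3, of the NADH-oxidising module, had -0.83 ± 0.19 under PEG (adjusted p = 0.0040) and -0.98 ± 0.32 in controls (adjusted p = 0.044). In controls Ndufc1 (-1.13 ± 0.26), Ndufs7, an iron-sulfur subunit (-0.85 ± 0.20), and Ndufb9 (-0.79 ± 0.19) passed at adjusted p of 0.0078, 0.0093 and 0.011. Ndufa1 was called higher in HEV under PEG alone (0.48 ± 0.16, adjusted p = 0.037); whether that differs from the controls was not shown by the interaction test below.

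Several of these calls were lost when any 1 of several libraries was left out. Atp5mpl of complex V (-0.90 ± 0.26), Uqcr10 of complex III (-0.82 ± 0.25) and Ndufa11 (-0.87 ± 0.27) passed in controls, and each call was lost without HEV control 9, 17 or 24 or FRC control 21. Atp5mpl was also lost without FRC control 20, Uqcr10 without FRC control 12, 13 or 20, and Ndufa11 without FRC control 4, 12 or 13. Under PEG, Ndufa13 was lost without HEV PEG 7, 14 or 22 or FRC PEG 10 or 18, and Ndufa1 without HEV PEG 7 or 23 or FRC PEG 3, 10, 11, 18 or 19. The count of 12 lower in controls was 22 without HEV control 8, 6 without HEV control 9, 17 or 24 or FRC control 21, and 7 without FRC control 12, 13 or 20. The count of 3 higher under PEG was 1 without HEV PEG 7.

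**Figure D2:**
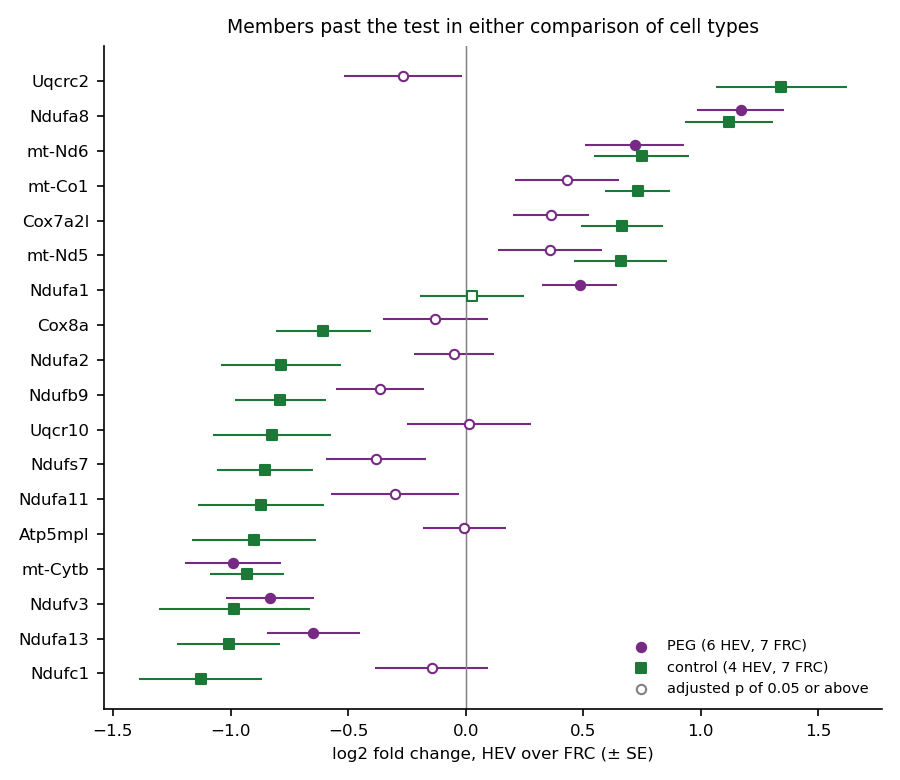
Log2 fold change of HEV over FRC, with SE bars, for the members called in at least 1 treatment, under PEG (circles) and in controls (squares), filled where called; Cox6b2 (-3.84 and -6.94) lies outside the axis and is not drawn. Ndufa8 (1.17 and 1.12) and mt-Cytb (-0.99 and -0.93) had nearly the same value in both treatments, and Uqcrc2 (-0.27 and 1.34) did not.

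The anchor subunits mostly did not pass. The 4 subunits of complex II had log2 fold changes of HEV over FRC from -0.47 to 0.16 under PEG and from -0.28 to 0.27 in controls, none past the test. Atp5a1 and Atp5b, the alpha and beta subunits of ATP synthase, had -0.44 ± 0.18 and 0.00 ± 0.16 under PEG and 0.08 ± 0.20 and 0.23 ± 0.18 in controls. Cox4i1, Cox5a and Cox5b lay between 0.17 and 0.55 under PEG and between -0.07 and -0.02 in controls. Among the isoforms, Cox8a passed in controls (-0.61 ± 0.20, adjusted p = 0.047), whereas Cox6a1, Cox7a1, Cox7a2, Cox7b and Atp5g1 to Atp5g3 passed in neither treatment.

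Lists of genes beside the pathway are given as counts and were not tested as lists. Of all genes, 12.5% were higher and 14.4% lower in HEV under PEG, and 10.4% higher and 14.2% lower in controls. Among the lists, 4 of 11 regulators of the nuclear genes were higher in HEV under PEG and 3 of 11 in controls, and 0 were lower in either. Gabpb1, the beta subunit of GABP, averaged 144 CPM in HEV PEG and 24.8 in FRC PEG libraries (2.73 ± 0.44, adjusted p = 0.00029), and 181 in HEV control and 24.7 in FRC control libraries (3.06 ± 0.32, adjusted p = 3.3e-05). The coactivator Pprc1 (1.58 and 1.84) and the receptor Esrrg (4.20 and 4.28) passed in both treatments, and Yy1 under PEG (1.52 ± 0.46). An ATP carrier of the inner membrane, Slc25a4, was lower in HEV in both treatments (-1.31 ± 0.17 under PEG and -0.92 ± 0.22 in controls). Etfa, which passes electrons from fat oxidation to the chain, was lower too (-1.74 ± 0.25 under PEG and -1.37 ± 0.28 in controls). In controls Slc25a5, a paralog of Slc25a4, was higher in HEV (0.63 ± 0.21, edgeR adjusted p = 0.044). Slc25a3 of the same list was higher there as well (0.69 ± 0.14, edgeR adjusted p = 0.0040). Of 14 carriers and partners, 0 were higher and 4 lower under PEG and 2 higher and 4 lower in controls. Of 78 mitochondrial ribosome genes 2 were higher and 4 lower under PEG, and 1 higher and 6 lower in controls. Of 45 assembly factors 2 were higher and 1 lower under PEG, and 1 higher and 3 lower in controls. Of 13 genes of the citric acid cycle 0 passed in either treatment, and of 15 genes of mitochondrial transcription and RNA 1 was lower under PEG (Polg2).

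The marker lists differed between the sorts as well. All 8 smooth muscle or pericyte markers were lower in HEV in both treatments, beside 14.4% of all genes under PEG and 14.2% in controls. Their summed level was 43.3 to 222 CPM in HEV PEG and 15.1 to 487 CPM in HEV control libraries, against 3738 to 5418 CPM in FRC PEG and 3633 to 5444 CPM in FRC control libraries. Their part in the member differences was not tested.

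The treatment contrast of the labels is PEG against control. Within HEVs 0 of 91 members passed, as did 0% of 14308 genes, and within FRCs 0 of 92 members and 0% of 14595 genes (edgeR quasi-likelihood). In FRC no member had every PEG library above every control or every PEG library below, against 0.0411% and 0.0343% of all genes. At an unadjusted p under 0.05 there were 3 members among 886 genes in HEV and 12 members among 989 genes in FRC. DESeq2 called 0 members in HEV, where 77 genes were higher and 39 lower, and 1 member in FRC (Uqcrc2, higher, adjusted p = 0.045), where 28 genes were higher and 27 lower. The median log2 fold change of nuclear members was 0.36 in HEV and 0.00 in FRC, against 0.01 over all genes in each. In HEV 68 of 79 nuclear members had a positive value. That HEV median was 0.07 without HEV control library 9, 0.16 without HEV PEG library 23 and -0.13 within libraries 1-9, where 1 PEG library stands against 2 controls. The pool term sets control library 9 with PEG libraries 14, 15 and 16. It does not adjust for the split after library 9 described below. Treatment and library number are therefore partly confounded in HEV.

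The members of smallest p are given as values. In HEV, Uqcrc2 had 96.0 to 176 CPM (median 120.0) in PEG, against 113, 219, 213 and 200.2 CPM in control libraries, a log2 fold change of -0.66 ± 0.24 (adjusted p = 0.79). In FRC it had 83.2 to 226 CPM (median 149) in FRC PEG, against 47.8 to 96.0 (median 75.9) in FRC control libraries, a log2 fold change of 0.95 ± 0.24 (adjusted p = 0.49). Both cell types overlapped between treatments, with HEV control library 8 within the HEV PEG range. FRC PEG libraries 1, 2, 10, 18 and 19 lay above every FRC control and libraries 3 and 11 within their range. The difference of the PEG effects, HEV minus FRC, was -1.55 ± 0.36 with an edgeR adjusted p of 0.14 and a DESeq2 adjusted p of 0.0066. For that difference DESeq2 called 213 of 18203 genes higher and 147 lower, while edgeR called 2 higher and 0 lower.

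In FRC, Uqcrfs1, the Rieske iron-sulfur subunit of complex III, had 0.50 ± 0.17 and Cox6c -0.47 ± 0.17, with adjusted p of 0.61 and 0.63. In HEV, Ndufb8 had 115 to 191 CPM (median 133) in PEG and 70.5 to 111 CPM in control libraries without overlap (0.66 ± 0.24, adjusted p = 0.79). It was 1 of 91 members with every PEG library above every control, against 0.538% of all genes. Ndufa6 had 0.63 ± 0.26 and Atp5g1 1.39 ± 0.64 (adjusted p = 0.79 and 0.80). Every mitochondrial gene outside the low block had a positive value in FRC, from 0.09 to 0.45, and none passed.

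The difference of the PEG effects passed for 0 of 94 members and for 0.011% of 18203 genes. After Uqcrc2, the smallest p were those of Cox6c (0.90 ± 0.31), Atp5mpl (0.83 ± 0.28) and Ndufc1 (0.93 ± 0.32), with adjusted p of 0.32 to 0.33. None of the anchor subunits passed with PEG in either cell type: Atp5b had 0.15 ± 0.22 in HEV and 0.27 ± 0.13 in FRC, Cox4i1 0.46 ± 0.26 in HEV and 0.18 ± 0.12 in FRC, and Sdha 0.05 ± 0.22 in HEV and 0.39 ± 0.16 in FRC. These misses do not show that levels were equal.

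Most epithelial markers had higher fitted values with PEG, and none passed the test. Of the epithelial markers tested, 22 of 23 in HEV and 20 of 20 in FRC had a positive log2 fold change, with a median of 1.65 in each, and 0 passed. Their summed level was 119 to 5427 CPM in HEV PEG and 35.8 to 1111 in HEV control libraries, and 118 to 7710 in FRC PEG and 60.9 to 3277 in FRC control libraries. These sums overlapped and carry no adjustment for library number. With the epithelial level in the model the nuclear median was 0.30 in HEV and -0.05 in FRC. Their part in the result was not tested.

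The nuclear members separated by library number. The 85 nuclear genes summed to 8877 to 11760 CPM (median 9606) in the 9 libraries numbered 1-9, against 12532 to 19307 CPM (median 14887) in the 15 libraries numbered 10-24. No library of either set reached the other. Library 9 belongs by its index pair with libraries 10 to 16, and at 9047 CPM it lay with libraries 1 to 8. The mitochondrial sums overlapped, at 10135 to 12929 CPM in libraries 1-9 and 7388 to 22383 CPM in libraries 10-24. This contrast was known from an earlier view of all genes of these same libraries, so its p-values are no independent support, and whether the numbers mark a day, a sort or a run is not stated in the sources used here.

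**Figure D3:**
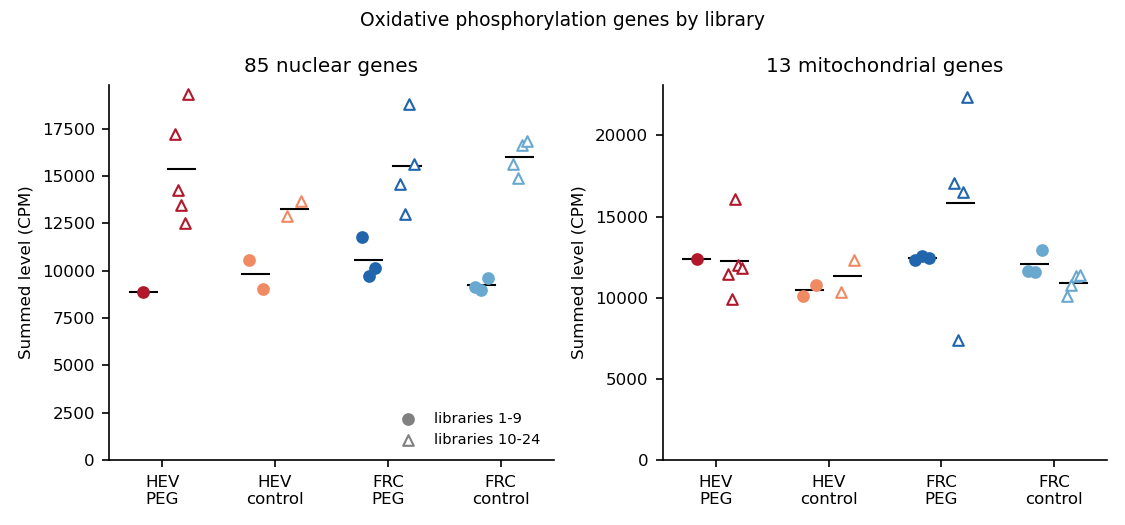
Summed CPM of the 85 nuclear members (left) and the 13 mitochondrial members (right), 1 point per library, by group; filled circles are libraries 1-9, open triangles libraries 10-24, and short lines are the means of each set within a group. In the left panel all libraries 1-9 lie at 8877 to 11760 CPM and all libraries 10-24 at 12532 to 19307 CPM, in every group; in the right panel they overlap.

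In FRC, 44 members were lower and 1 was higher in libraries 1-9 than in 10-24, of 93 tested, against 5.31% lower and 6.95% higher of 15217 genes. All but 2 of those lower were nuclear (42 of 81). The nuclear median was -0.70, against 0.00 over all genes, and 74 of 81 values were negative. For 33 nuclear members every library 1-9 lay below every library 10-24, against 2.77% of all genes, and for no member did all lie above, against 2.17%.

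In HEV, with 3 libraries against 7, 4 members were lower and 0 higher of 93, against 0.781% lower and 1.73% higher of 15229 genes (2.51% in either direction). These were Atp5b, Atp5j, Cox6c and mt-Cytb, all of them also lower in FRC; they are 100% of the HEV calls and 9.09% of the FRC calls, against 43.4% and 6.48% over all genes called lower. The nuclear median was -0.58, against -0.08 over all genes, 76 of 80 values were negative, and 27 nuclear members had every library 1-9 below every library 10-24, against 5.68% of all genes. All lay above for 1 member, mt-Nd5, against 5.33%. The HEV calls rested on few libraries: 0 were left without HEV PEG 7 or HEV control 9, 17 or 24, 1 without HEV control 8 or HEV PEG 14 and 2 without HEV PEG 23. Leaving these out also cut the genes called lower over all genes. They fell from 119 to between 5 (without HEV PEG 7) and 94 (without HEV control 8). DESeq2 called 26 members lower, beside 1003 of 15229 genes, where edgeR called 119 genes lower.

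The calls were spread over complexes I, III, IV and V. In FRC the lower calls were 20 of 37 nuclear members of complex I, 0 of 4 of complex II, 4 of 8 of complex III, 8 of 15 of complex IV and 10 of 17 of complex V. Median log2 fold changes were -0.63, 0.07, -0.65, -0.71 and -0.82 for complexes I to V in FRC, and -0.50, -0.05, -0.40, -0.76 and -0.86 in HEV. The difference between complexes was not tested.

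Subunits of ATP synthase separated the library sets in both cell types. Atp5j had 247, 267 and 272 CPM in the 3 HEV libraries 1-9, against 400.0 to 650 CPM in HEV libraries 10-24, and 203 to 268 (median 234) in FRC libraries 1-9, against 398 to 622 (median 490) in FRC libraries 10-24. Neither cell type overlapped. The log2 fold change was -0.86 ± 0.19 in HEV (adjusted p = 0.034) and -1.03 ± 0.12 in FRC (adjusted p = 6.2e-05).

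Atp5b had 546, 669 and 658 CPM in HEV libraries 7, 8 and 9, against 765 to 1382 (median 1222) in HEV libraries 10-24, and 545 to 685 (median 622) in FRC libraries 1-9, against 828 to 1623 (median 923) in FRC libraries 10-24. Its log2 fold change was -0.99 ± 0.21 in HEV (adjusted p = 0.029) and -0.64 ± 0.14 in FRC (adjusted p = 0.0055). Atp5a1, its partner in the catalytic head, had -0.24 ± 0.22 and 0.10 ± 0.16 and did not pass. Atp5mpl had -1.04 ± 0.26 in HEV (adjusted p = 0.053) and -1.17 ± 0.16 in FRC (adjusted p = 0.00017). Of the c-ring genes Atp5g3 passed in FRC (-0.82 ± 0.16) and Atp5g1 did not (-0.89 ± 0.42, adjusted p = 0.20).

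In complex IV, Cox6c had 203, 185 and 185 CPM in HEV libraries 7, 8 and 9, against 328 to 636 (median 401) in HEV libraries 10-24, and 156 to 200.1 (median 177) in FRC libraries 1-9, against 340.4 to 847 (median 477) in FRC libraries 10-24. The log2 fold change was -1.04 ± 0.23 in HEV (adjusted p = 0.035) and -1.41 ± 0.18 in FRC (adjusted p = 7.3e-05). In FRC, Cox6a1 (-1.17 ± 0.18), Cox5a (-0.84 ± 0.22), Cox6b1 (-0.81 ± 0.16), Cox4i1 (-0.70 ± 0.13), Cox8a (-0.68 ± 0.13) and Cox7a2 (-0.46 ± 0.14) were lower. Cox5b, Cox7b, Cox7c and Cox7a2l had -0.62 to -0.35 and did not pass.

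In complex III, Uqcr11, its smallest subunit, had 34.7, 43.8 and 24.6 CPM in HEV libraries 7, 8 and 9, against 65.6 to 181 in HEV libraries 10-24, and 20.7 to 42.1 (median 32.7) in FRC libraries 1-9, against 75.3 to 124 (median 91.6) in FRC libraries 10-24. No library of one set reached the other in either cell type. In FRC Uqcr11 (-1.52 ± 0.19), Uqcrq (-1.07 ± 0.17), Uqcr10 (-0.93 ± 0.17) and Uqcrh (-0.77 ± 0.14) were lower at adjusted p of 9.3e-05 to 0.0014. The large core subunit Uqcrc1 had 0.02 ± 0.17 and Uqcrfs1 -0.37 ± 0.17, neither past the test.

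In complex I, the lower members in FRC included Ndufb2 (-1.26 ± 0.21), Ndufb6 (-0.97 ± 0.15), Ndufs8, an iron-sulfur subunit (-0.91 ± 0.15), and Ndufv3 (-0.89 ± 0.14), each with every library 1-9 below every library 10-24. Ndufv1, which binds NADH, was also lower (-0.66 ± 0.14, adjusted p = 0.0038). Ndufs1, the largest subunit, had 0.18 ± 0.31 and Ndufb8 had -0.36 ± 0.16, and neither passed.

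In complex II the libraries overlapped. Sdha had 272 to 458 CPM in HEV libraries 1-9 and 391 to 577 CPM in HEV libraries 10-24, and 284 to 585 CPM in FRC libraries 1-9 and 287 to 566 CPM in FRC libraries 10-24. In FRC the log2 fold changes were 0.12 ± 0.16 for Sdha, -0.11 ± 0.14 for Sdhb, 0.02 ± 0.23 for Sdhc and 0.40 ± 0.19 for Sdhd. In HEV they were -0.26 ± 0.21, -0.06 ± 0.31, 0.20 ± 0.36 and -0.04 ± 0.28. The summed level of the 4 genes was 614 to 1161 CPM in libraries 1-9 and 705 to 1123 CPM in libraries 10-24.

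**Figure D4:**
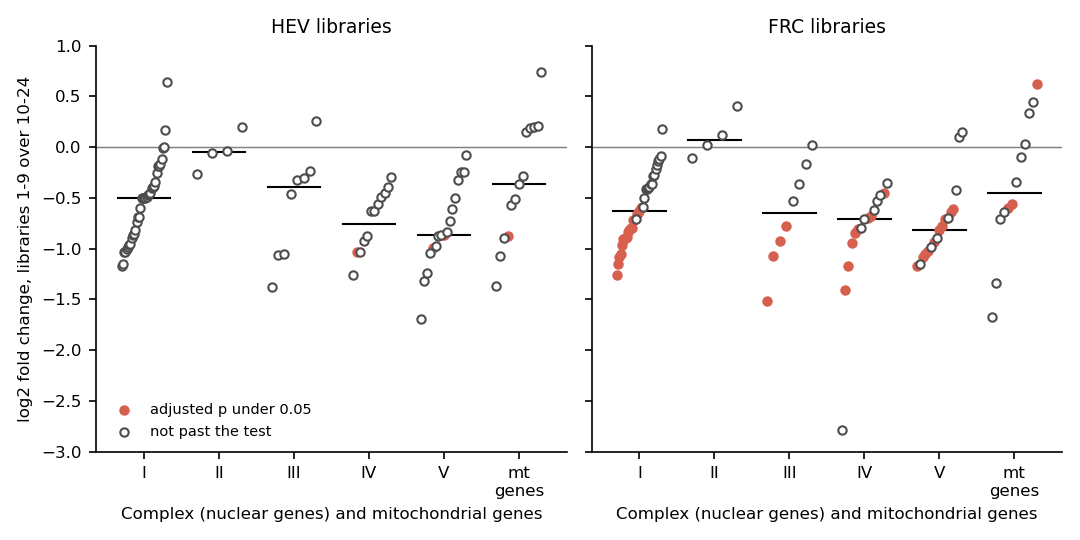
Log2 fold change of libraries 1-9 over 10-24 for each nuclear member by complex and each mitochondrial member, in HEV (left) and FRC (right); filled points passed at an adjusted p under 0.05 and lines are medians. The nuclear medians of complexes I, III, IV and V lie at -0.86 to -0.40, and those of complex II at -0.05 in HEV and 0.07 in FRC. The HEV values of Cox6b2 (-7.21) and Cox7a1 (-5.08), neither past the test, lie below the axis.

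The mitochondrial genes did not move together. In FRC mt-Nd2 (-0.60 ± 0.14, adjusted p = 0.0086) and mt-Cytb (-0.56 ± 0.17, adjusted p = 0.045) were lower and mt-Nd5 was higher (0.62 ± 0.19, adjusted p = 0.045) in libraries 1-9. In HEV the values were -0.57 ± 0.20, -0.88 ± 0.21 and 0.74 ± 0.19, with adjusted p of 0.16, 0.049 and 0.058. mt-Nd1 (0.21 ± 0.19 in HEV and 0.45 ± 0.20 in FRC), mt-Co1, mt-Nd4 and mt-Nd6 did not pass. The FRC calls were fragile: that of mt-Cytb was lost without FRC PEG 1, 2, 3, 10, 18 or 19 or FRC control 4 or 21, and that of mt-Nd5 without FRC PEG 2, 3 or 18 or any FRC control library.

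Ratios between mitochondrial genes of the same library do not depend on how libraries are scaled. The ratio of mt-Cytb to mt-Nd1 reads was 0.220 to 0.312 in HEV libraries 1-9 and 0.497 to 0.659 in HEV libraries 10-24, and 0.449 to 0.611 in FRC libraries 1-9 and 0.888 to 1.46 in FRC libraries 10-24. The library sets did not overlap in either cell type, and within each set every HEV library lay below every FRC library. The ratio of mt-Nd2 to mt-Nd1 was 0.0582 to 0.0892 in HEV libraries 1-9 and 0.117 to 0.209 in HEV libraries 10-24, and 0.0539 to 0.0696 in FRC libraries 1-9 and 0.0920 to 0.191 in FRC libraries 10-24. For this ratio the library sets were apart again and the cell types overlapped.

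**Figure D5:**
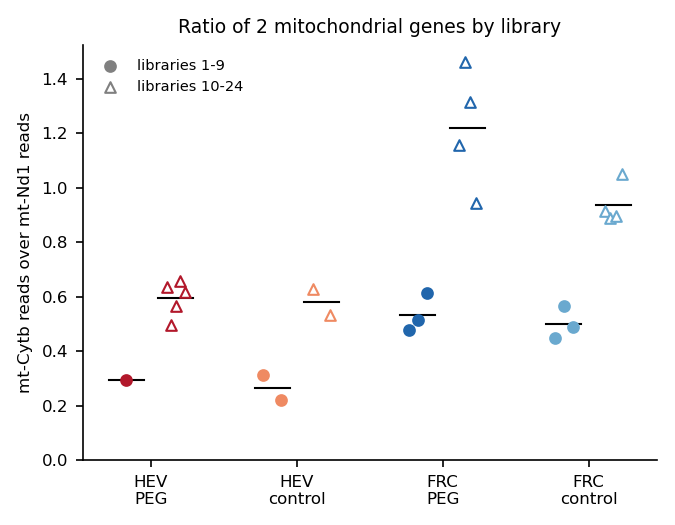
Ratio of mt-Cytb to mt-Nd1 reads in each library, by group, with libraries 1-9 as filled circles and 10-24 as open triangles; short lines are the means of each set within a group. HEV libraries lie at 0.220 to 0.312 and 0.497 to 0.659 in the 2 sets, and FRC libraries at 0.449 to 0.611 and 0.888 to 1.46.

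The size of the difference varied with gene length. Lengths were taken from the ratio of the deposited counts to nRPKM, on a relative scale. For the shortest, middle and longest 27 nuclear members in FRC, the median log2 fold changes were -0.94, -0.70 and -0.37, with 16, 16 and 10 called lower. All genes within the same bounds of length had medians of -0.34, -0.40 and 0.04. In HEV the members had -0.99, -0.57 and -0.40, against -0.32, -0.36 and -0.04 for all genes. Across nuclear members the Spearman correlation of length with log2 fold change was 0.49 in HEV (77 genes) and 0.59 in FRC (78 genes), against 0.21 and 0.24 over all genes, as descriptions of genes that share their libraries. The same correlation for PEG over control was -0.38 in HEV and 0.63 in FRC, against -0.05 and -0.15 over all genes.

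Promoter letters did not sort the members in 1 direction. Of members tested in FRC, 4 of 14 with an NRF1 core and 33 of 55 without it were lower in libraries 1-9, and 8 of 12 with a GABP site and 29 of 57 without it were. Of the promoters shown, Sdhd holds both sites and its gene was not called, while Cox6a1 holds both and was.

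The other lists of mitochondrial genes are given as counts, beside 5.31% lower and 6.95% higher of all genes in FRC, and were not tested as lists. In FRC 11 of 78 mitochondrial ribosome genes were lower and 0 higher, with a median of -0.41. Of 45 assembly factors 5 were lower (Ndufaf6, Cox16, Cox17, Uqcc2 and Sdhaf1), and Coa5 was higher (1.83 ± 0.34). Of 14 carriers and partners 5 were lower, among them Atpif1, the inhibitor of ATP synthase (-0.99 ± 0.17), and Etfb and Etfdh, which bring electrons from fat oxidation (-0.73 ± 0.14 and -1.10 ± 0.21). Sucla2 alone of 13 citric acid cycle genes was lower, and 0 of 11 regulators and 0 of 15 genes of mitochondrial transcription and RNA passed. In HEV the gene of these lists that passed was Idh3b of the citric acid cycle (-0.84 ± 0.19).

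Other measures moved with the library numbers. Genes with at least 1 read numbered 16283 to 17040 in HEV libraries 1-9 and 17327 to 18904 in HEV libraries 10-24, and 17095 to 18152 in FRC libraries 1-9 and 18126 to 19920 in FRC libraries 10-24. The summed FRC markers were 30685 to 40154 CPM in FRC libraries 1-9 and 24272 to 30015 CPM in FRC libraries 10-24, and the leukocyte markers 55.5 to 95.2 CPM in FRC libraries 1-9 and 8.06 to 46.5 CPM in FRC libraries 10-24. These sums rest on part of each list. Beside the calls that follow, 6.95% of all genes were higher and 5.31% lower in FRC libraries 1-9, and 1.73% higher and 0.781% lower in HEV libraries 1-9. Of 12 FRC markers 4 were called higher and 1 lower in FRC libraries 1-9, with a median log2 fold change of 0.09, and of 6 leukocyte markers tested 1 was higher and 1 lower, with a median of -0.85. Of the macrophage or dendritic cell markers, 2 of 5 in HEV and 2 of 6 in FRC were called higher in libraries 1-9, with medians of 4.72 and 1.69. Their sums overlapped, at 76.2 to 140 CPM in HEV libraries 1-9 and 9.41 to 175 CPM in HEV libraries 10-24, and 157 to 251 CPM in FRC libraries 1-9 and 30.6 to 299.6 CPM in FRC libraries 10-24. All 4 enteric glia markers had negative values in FRC (median -2.25, 0 called), with sums of 0.161 to 10.6 CPM in FRC libraries 1-9 and 6.64 to 68.4 CPM in FRC libraries 10-24. Their part in the result was not tested.

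Epithelial markers were lower in libraries 1-9 for 21 of 24 in HEV (median log2 fold change -2.23) and 20 of 21 in FRC (median -2.60), with 0 called. Their sum was 35.8 to 753 CPM in HEV libraries 1-9 and 119 to 5427 CPM in HEV libraries 10-24, and 60.9 to 1266 CPM in FRC libraries 1-9 and 67.0 to 7710 CPM in FRC libraries 10-24. With the epithelial level in the model 0 members were called lower in HEV and 31 in FRC, with nuclear medians of -0.51 and -0.59. Calls over all genes fell as well. In HEV 23 of 15229 genes were lower, against 119 without that term, and in FRC 535 of 15217, against 808.

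Within a treatment the direction was the same and the calls depended on the libraries used. The nuclear median was -0.56 in FRC PEG libraries alone and -0.93 in FRC control libraries alone, with 1 and 33 members called lower. Among all genes, 28 of 15595 were lower in the FRC PEG libraries and 526 of 15543 in the FRC control libraries. The difference between the 2 treatments was not tested. In HEV the nuclear median was -0.89 in PEG libraries, where 1 library stood against 5, and -0.56 in control libraries. In the HEV control libraries 0 members were called, as were 0 of 13831 genes.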

How the data were processed

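Poly(A) RNA of sorted HEVs and FRCs was amplified by template switching, tagmented and sequenced, per the labels' protocols. Reads were aligned with GSNAP to mm9, per the submitters' processing notes, while the protocol text also names GRCh37; uniquely aligned reads alone were kept, per the labels' protocols. The deposited files hold raw read counts per Entrez gene and RPKM values adjusted by size factors (nRPKM), per the file headers. For each gene with reads, counts divided by nRPKM and the size factor gave the same value in all libraries (31018 of 31018 genes, tolerance 1e-06), which served as relative length. RPKM was used to compare levels between genes and counts for all tests.

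Symbols from RefSeq (GRCm38.p6 table) matched 85.0% of gene IDs, which hold 97.3% of reads. Counts were tested with edgeR 4.0.16 (R 4.3.3, limma 3.58.1): filterByExpr with a minimum count of 10, TMM scaling, robust quasi-likelihood fits, and Benjamini-Hochberg adjustment over all genes tested, with an adjusted p under 0.05 called. HEV was set over FRC in each treatment and PEG over control in each cell type with the inferred pool as covariate, the difference of PEG effects in 1 model, and libraries 1-9 over 10-24 in each cell type with treatment as covariate. The 3 pools (libraries 1 to 8, 9 to 16 and 17 to 24) were inferred from the recurrence of 8 index pairs. DESeq2 1.42.0, other scalings, filters, covariates and subsets were alternatives, and the fits were checked on simulated data. Python 3.11.15 with pandas 2.3.3, numpy 2.4.6 and matplotlib 3.10.9 made the summaries.

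The members, the lists and the library-number contrast were chosen with earlier results of these data known. Genes named were the 13 mitochondrial genes, 20 anchor subunits (1 of them is not reported here), paralog pairs, and per comparison up to 8 nuclear members called in each direction with at least 5 CPM, by smallest p, or the 4 of smallest p where fewer passed; other genes named belong to the pathway and marker lists. Replicates are libraries whose labels tie them to separate samples of 1000 cells, so p-values measure the spread between libraries. Precision is limited by counting error in genes with few reads, such as those of the low mitochondrial block.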

Additional observations from a re-analysis of the deposited data

Results flagged for a closer look

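Within each group the highest and lowest library were compared with the rest, and 4 of 84 such tests over member levels stood apart, where chance gives about 1 in 20. mt-Nd5 had 199 CPM in FRC PEG library 11, against 412 CPM in the next lowest FRC PEG library, a gap of 0.585 of the group's range. In HEV PEG library 7 mt-Nd5 had 895 CPM, against 504.1 CPM in the next highest HEV PEG library (0.780 of the range); library 7 is the single HEV PEG library among numbers 1-9. mt-Co1 had 1758 CPM in FRC control library 6, against 1428 CPM in the next highest FRC control library (0.611 of the range). Ndufa1 had 179 CPM in HEV control library 24, against 114 CPM in the next highest HEV control library (0.912 of the range).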

How the results depend on the processing

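No paired analysis was possible because the groups share no replicate numbers and the labels tie no mouse to more than 1 library. Calls over all genes also moved with the setting. HEV over FRC in controls called 1636 genes higher and 2233 lower, 652 and 825 in libraries 1-9 alone, and 1899 and 2427 without a filter. The library contrast in HEV called 264 higher and 119 lower, and 445 and 261 without the covariate. A moved count is therefore not a result about the members alone. Counts of called members that moved by over 1.5 times, and medians that moved by over 1 SD, were these. HEV over FRC in controls (6 higher, 12 lower) gave 3 higher and 5 lower without a filter on low counts, 4 lower without the covariate, 3 higher and 4 lower with a mitochondrial median of -0.067 in libraries 10-24 alone, and 1 higher and 2 lower in libraries 1-9 alone. Under PEG (3 higher, 4 lower) it gave 1 higher without a filter and in libraries 10-24 alone, and 1 higher and 0 lower in libraries 1-9 alone. PEG over control in FRC (0) gave 2 higher without a filter and 1 higher with DESeq2. In HEV the mitochondrial median of 0.30 was 0.053 with the i5 index in the model, and the nuclear median was -0.13 in libraries 1-9 alone. The difference of PEG effects (0) gave 1 lower without a filter and with DESeq2, and in libraries 1-9 alone its nuclear and mitochondrial medians were -0.28 and 0.46. Libraries 1-9 over 10-24 in FRC (1 higher, 44 lower) gave 0 higher under RLE size factors, the submitters' size factors, no covariate, the i5 index and PEG libraries alone, 1 lower in PEG libraries alone, and 2 higher in control libraries alone. In HEV (0 higher, 4 lower) the contrast gave 1 higher without a filter, 7 lower at a count minimum of 50, 1 higher and 26 lower with DESeq2, 0 lower with a mitochondrial median of 0.031 with the epithelial level in the model, 1 higher and 17 lower with a mitochondrial median of -0.63 without the covariate, 1 lower with the i5 index, and 0 lower in PEG or control libraries alone. Single members that changed sign did so in libraries 1-9 alone: PEG over control in FRC for Cox6c (0.092), and the difference of PEG effects for Atp5mpl (-0.041) and Ndufc1 (-0.030). Leaving out each library in turn gave 6 to 22 lower, 4 to 7 higher and a mitochondrial median of -0.33 to 0.11 for HEV over FRC in controls, 1 to 4 higher and 3 to 6 lower under PEG, 0 to 2 higher and 38 to 50 lower for the library contrast in FRC, and 0 to 1 higher and 0 to 6 lower in HEV. Over the other settings, 397 values of single members kept their direction and side of the threshold, 86 lost and 7 gained a call. Scaling to reads in nuclear protein-coding genes moved no summed level by over 1 SD. The alternative on level per length was not run. The causes were not tested.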
